A study of Homo sapiens with 38 samples.

Results

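Naive Shef6 human embryonic stem cells kept on Geltrex were compared with the same cells kept on a serum coating, in 4 of the 38 libraries of the series. The members were all libraries titled as naive cells in PXGL at day 0 that do not belong to the second experiment (Ex2): 2 libraries on Geltrex and 2 on serum, chosen by their titles. The other libraries follow the exit from the naive state (capacitation) on Geltrex in N2B27, E8, mTeSR or supplemented N2B27, and 2 further naive libraries on Geltrex come from Ex2. RNA was read by QuantSeq, which sequences the 3′ end of each polyadenylated transcript, so 1 transcript gives 1 tag whatever its length.

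Both groups carried the same cell line, medium and day. Shef6 is an embryonic stem cell line that was reset to the naive state and then adapted to growth without feeder cells on serum. PXGL holds inhibitors of MEK, tankyrase and PKC together with LIF, and the labels give the condition as PXGLY. The serum coating was 10% fetal bovine serum in high-glucose DMEM, and the cells on Geltrex were serum-adapted too. The serum libraries carry GelFBS in their names, and what Gel stands for is not given. The time they had spent on Geltrex before lysis is not given in the sources used here. The study calls its replicates technical in one place and biological in another, so the p-values, whose spread is estimated over all libraries of 1 line in both experiments, may measure technical spread only.

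Naive human pluripotent stem cells resemble the epiblast of the blastocyst before implantation and need a surface to hold on to once feeder cells are removed. Geltrex is a basement membrane extract rich in laminin, collagen IV, entactin and heparan sulphate proteoglycans. Serum coating lays down attachment proteins of blood plasma such as fibronectin and vitronectin. Integrins and syndecans at the cell surface bind these proteins and connect them through focal adhesions to actin.

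Total counts were 4390955 and 4559287 in the serum libraries and 4529909 and 5577221 in the Geltrex libraries, within the 3038046 to 5612354 of the series. The unit of expression is CPM, a count corrected for sequencing depth in which each gene's count is divided by its TMM-scaled library size, and 3 counts corresponded to 0.541 to 0.673 CPM. Serum replicate 1 stood apart from the other 3 libraries. Its log2 CPM correlated with those of serum replicate 2 at r = 0.981, and with those of Geltrex replicate 2 at 0.973, across 16674 genes that are not independent of each other. Serum replicate 2 correlated with both Geltrex libraries at 0.983, which is above its correlation with its own replicate, and the Geltrex pair reached 0.985. The share of counts from cytosolic ribosomal protein genes was 9.06% in serum replicate 1, 9.60% in serum replicate 2 and 10.5% in each Geltrex library, and the share from mitochondrial genes was 3.48%, 2.97%, 2.56% and 2.65%. Values with serum replicate 1 left out are therefore given beside many of the results below.

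Few genes passed the thresholds in the fit of all 38 libraries, and other fits gave very different numbers. Of 16674 genes tested, 8 passed an adjusted p under 0.05 with an absolute log2 fold change above 1 (0.0480%), 4 higher and 4 lower on Geltrex (0.0240% each). Without a fold limit 29 genes passed (0.174%), 14 higher (0.0840%) and 15 lower (0.0900%). The libraries of the coatings did not overlap in any of the 29, nor in 46.4% of all genes. Lack of overlap in single genes below is therefore no further support. Over the genes tested, log2 fold changes had a median of −0.00073 and a median size of 0.24, beside a median SE of 0.252. With 2 libraries a group, differences of that size could not be told from none. An unadjusted p under 0.05 was reached by 14.1% of genes. Under the adjusted p alone, DESeq2 gave 191 genes, the 4 libraries with a block for replicate number 1483, and the 30 first-experiment libraries 0.

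**Figure D1:**
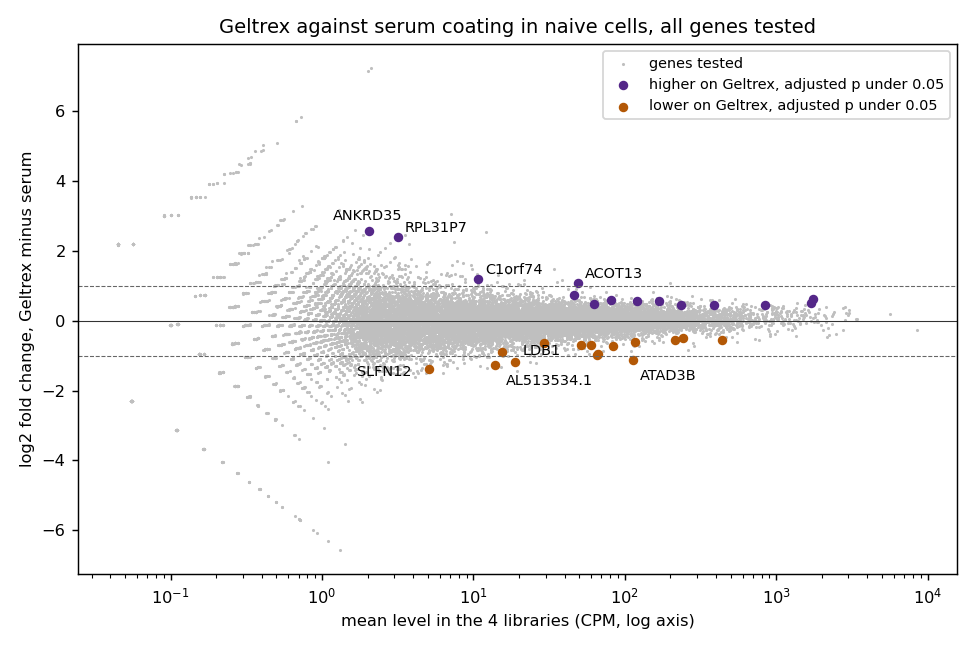
Log2 fold change of Geltrex against serum (y axis) by the mean CPM of the 4 libraries (x axis, log scale) for the genes tested with at least 1 count in them. The 14 genes higher and 15 lower at an adjusted p under 0.05 are coloured, the 8 past a log2 fold change of 1 (dashed lines) are named, and the fans of points at the left are genes with a few counts in all.

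Among genes past both thresholds whose Geltrex mean reached 10 CPM, the largest rise was that of C1orf74, an open reading frame without a well-defined role, which had 5.09 and 8.08 CPM on serum and 13.5 and 16.4 on Geltrex. In this gene both Geltrex libraries lay above both serum libraries (log2 fold change 1.18, SE 0.26, adjusted p = 0.0492, edgeR quasi-likelihood test). ACOT13, a mitochondrial acyl-CoA thioesterase, had 24.6 and 38.7 CPM on serum and 61.7 and 71.3 on Geltrex (log2 fold change 1.07, SE 0.22, adjusted p = 0.0320). Relative to their level, the serum libraries of both genes differed from each other by more than the Geltrex libraries did. ANKRD35, which encodes an ankyrin repeat protein, rose from near nothing, with 3 and 2 counts on serum and 20 and 14 on Geltrex, a ratio of 6.19 (95% exact Poisson interval 2.41 to 20.3, counting error only; adjusted p = 0.0320). RPL31P7, a processed pseudogene of RPL31 that lies within RPTOR (chr17:80602549-80602926, hg38), had 3 and 6 counts on serum and 25 and 28 on Geltrex (ratio 5.36, interval 2.62 to 12.4, adjusted p = 0.0430). Reads of such a copy can be shared with its parent gene RPL31, so its value is uncertain.

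The fall of SLFN12, a member of the Schlafen family, was the steepest of the 4, from 6.86 and 7.86 CPM on serum to 2.69 and 2.89 on Geltrex (log2 fold change −1.39, SE 0.28, adjusted p = 0.0320). AL513534.1, a gene known only by a clone name, had 19.04 and 20.3 CPM on serum and 8.53 and 7.76 on Geltrex (−1.27, SE 0.27, adjusted p = 0.0430). In both genes the replicates of each coating agreed closely and the groups were well apart. LDB1, the cofactor that binds LIM-domain proteins, had 31.0 and 21.6 CPM on serum and 10.6 and 12.5 on Geltrex (−1.18, SE 0.24, adjusted p = 0.0320). ATAD3B, an ATPase of the mitochondrial inner membrane, had 195 and 113 CPM on serum and 68.9 and 72.4 on Geltrex (−1.13, SE 0.22, adjusted p = 0.0320). The wide gap between its serum libraries makes the size of its fall uncertain, and it has a near-identical neighbour, ATAD3A, with which reads can be shared.

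The other 21 genes passed at folds below 2. Ribosomal proteins of the large subunit were among the genes that rose. RPL26 had 1170 and 1590 CPM on serum and 2029 and 2245 on Geltrex (log2 fold change 0.63, SE 0.13, adjusted p = 0.0320), RPL5 rose by 0.50 and RPL12 by 0.45. Among genes of mitochondria, MTIF2, an initiation factor of mitochondrial translation, had 302 and 346 CPM on serum against 463 and 431 on Geltrex (0.46, SE 0.10, adjusted p = 0.0320), and SUCLG1, a subunit of succinyl-CoA ligase in the citric acid cycle, had 125 and 149 against 197 and 206 (0.56, SE 0.12, adjusted p = 0.0393). In both genes the 2 coatings did not overlap, as in all 29 genes under the adjusted threshold.

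GGCT, an enzyme of glutathione turnover, rose by 0.57 on the log2 scale, SCOC, a coiled-coil protein of the Golgi, by 0.61, FEZ2 by 0.46 and IVNS1ABP by 0.73. PMAIP1, the BH3-only protein NOXA that promotes apoptosis, had 50.7 and 53.5 CPM on serum and 75.9 and 70.0 on Geltrex (0.48, SE 0.11, adjusted p = 0.0473). Its serum libraries differed by less than 3 CPM, and both lay below both Geltrex libraries.

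Among the genes that fell, 3 were long noncoding RNAs that stay in the nucleus. MEG3, an imprinted RNA expressed from the maternal copy, had 547 and 498 CPM on serum and 345 and 374 on Geltrex (log2 fold change −0.54, SE 0.11, adjusted p = 0.0320). KCNQ1OT1, an imprinted RNA antisense to KCNQ1, had 269 and 243 CPM on serum and 174 and 175 on Geltrex (−0.55, SE 0.12, adjusted p = 0.0430). NEAT1, the scaffold of paraspeckles, had 113 and 96.1 CPM on serum and 63.1 and 64.2 on Geltrex (−0.72, SE 0.15, adjusted p = 0.0320). The 2 coatings did not overlap in any of the 3, as in all 29 genes under the adjusted threshold. The Geltrex libraries lay close together.

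MIDN, a protein that carries short-lived nuclear proteins to the proteasome, had 286 and 281 CPM on serum and 214 and 185 on Geltrex (−0.51, SE 0.090, adjusted p = 0.0240). JADE2 and BRPF3, scaffold subunits of histone acetyltransferase complexes, fell by 0.70 and 0.65 on the log2 scale. The RNA-binding proteins ATXN2L and RBM23 fell by 0.94 and 0.70, and AC012617.1, a second gene known by a clone name, fell by 0.99 from 105 and 68.6 CPM to 40.6 and 46.2.

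SDC4 and LPP fell. SDC4 encodes syndecan-4, a heparan sulphate proteoglycan that works beside integrins as a receptor for matrix. It had 156 and 125 CPM on serum and 103 and 82.3 on Geltrex (log2 fold change −0.60, SE 0.13, adjusted p = 0.0492). LPP, a LIM-domain protein of focal adhesions, had 21.3 and 18.8 CPM on serum and 12.1 and 9.74 on Geltrex (−0.88, SE 0.19, adjusted p = 0.0430). Both genes were lower in both Geltrex libraries than in either serum library.

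**Figure D2:**
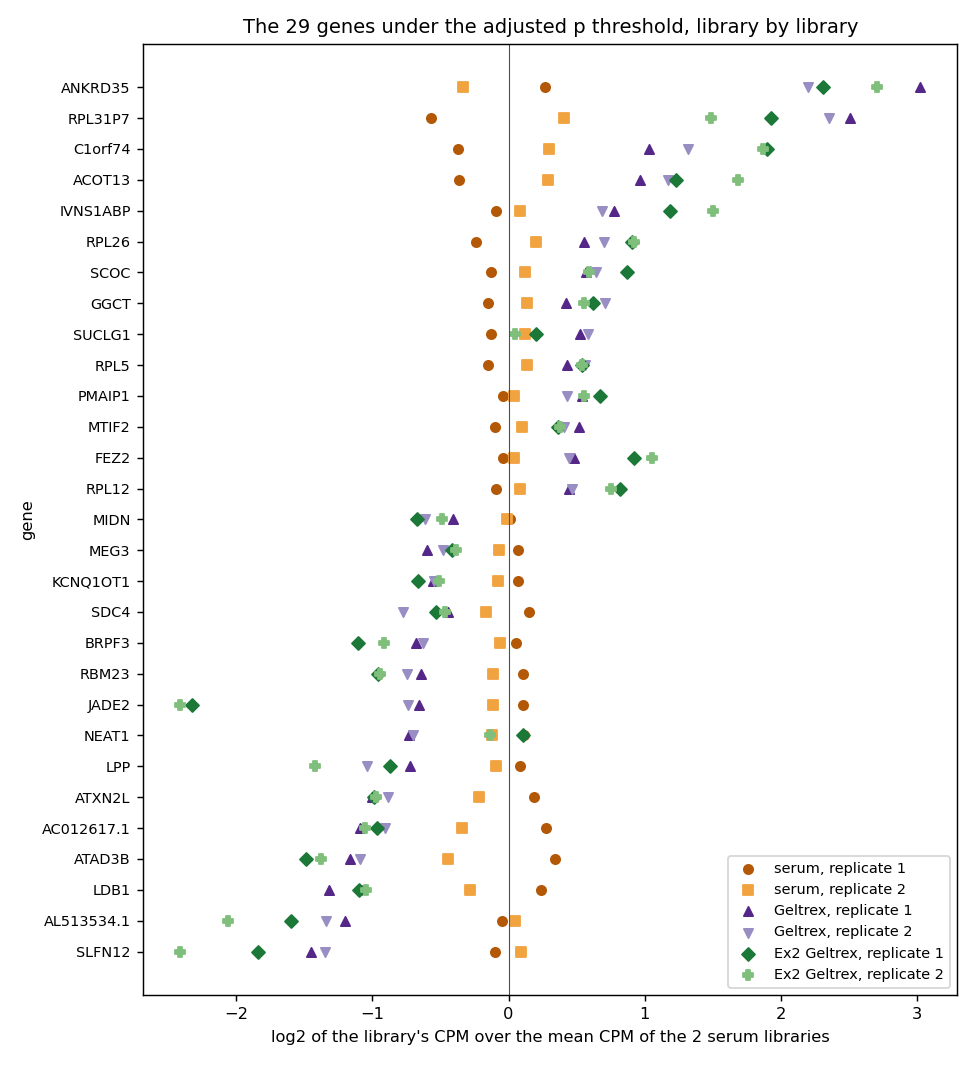
The 29 genes at an adjusted p under 0.05 (y axis) with the log2 ratio of the CPM of each naive library to the mean of the 2 serum libraries (x axis). Circles and squares are serum replicates 1 and 2, triangles the Geltrex replicates of the same experiment, and diamonds and crosses the Ex2 Geltrex replicates, and the squares lie between the circles and the triangles in 26 of the 29 genes, the triangles taken as their mean.

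The number of calls changed with the libraries fitted, and a group with 1 library left also gives less power. In 26 of the 29 genes serum replicate 2 lay between serum replicate 1 and the mean of the Geltrex libraries, a position it took in 46.6% of all genes tested. Where the coatings do not overlap, as in all 29, 1 of the serum libraries must lie between. This need not hold in other genes, so the shares are not directly comparable. With serum replicate 1 left out, no gene passed an adjusted p under 0.05 in edgeR, and 830 genes (4.98%) had an unadjusted p under 0.05, against 2355 (14.1%) with it, which DESeq2 put at 1727. With serum replicate 2 left out instead, 146 genes passed both thresholds and 367 the adjusted p alone, among them 19 members of the 36 gene lists where 3 passed with all libraries. Of the genes given below with values that missed the adjusted threshold, SALL4, ILK, SRF, ZNRF3, FDPS, FADS1, PSAT1, COX7C, RPL13A, RPL31, EEF1B2, EEF1D and TPT1 were under it in that fit. Leaving out Geltrex replicate 1 gave 1 gene past both thresholds and 7 past the adjusted p, and leaving out Geltrex replicate 2 gave none, with 1380 at an unadjusted p under 0.05. The libraries fitted together mattered as well, since edgeR called no gene when the 30 libraries of the first experiment were fitted alone (2105 at an unadjusted p under 0.05). A lone library was taken to vary like the other groups in these fits.

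In all 29 genes the coatings did not overlap, so leaving out 1 serum library could hardly turn a direction, and none turned. Only the sizes of the differences are therefore compared. Without serum replicate 1 the log2 fold change was −1.48 for SLFN12, −1.32 for AL513534.1, −0.50 for MIDN, 0.42 for FEZ2 and 0.45 for PMAIP1, close to the values with all libraries. It shrank to −0.68 for ATAD3B, −0.66 for AC012617.1, 0.43 for RPL26 and 0.79 for ACOT13. Leaving out serum replicate 2 moved the same 4 to −1.46, −1.27, 0.87 and 1.44.

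**Figure D3:**
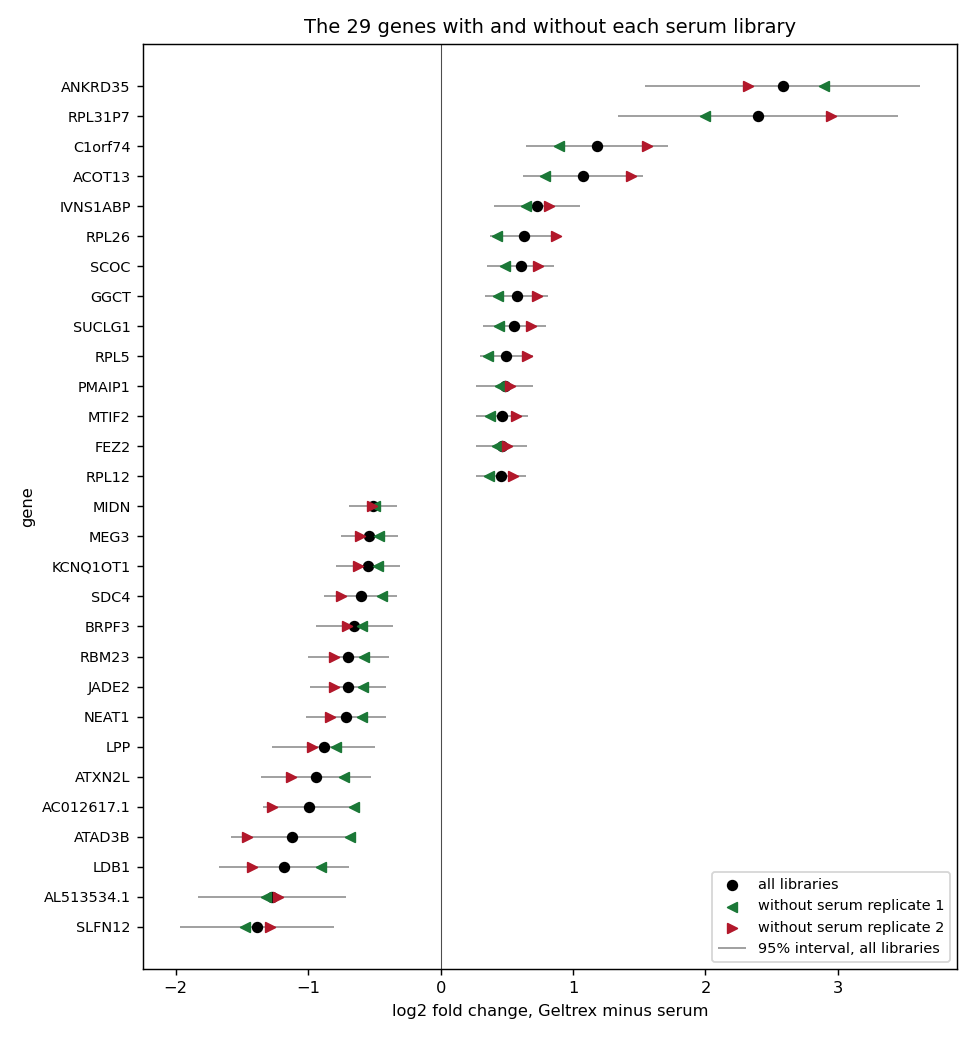
Log2 fold change of Geltrex against serum (x axis) for the 29 genes (y axis) from all libraries (circles, with the 95% interval of the fit) and with serum replicate 1 or serum replicate 2 left out (triangles). All values keep their side of 0, as lack of overlap between the coatings in these genes all but ensures. The triangles of AC012617.1, ATAD3B and RPL26 lie far apart, while those of AL513534.1, MIDN and PMAIP1 nearly coincide.

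The same genes were also measured through capacitation. The 16 groups of differentiating cells, all on Geltrex, spanned 29.8 to 122.5 CPM in their means for ACOT13, 31.0 to 116 for JADE2 and 83.9 to 345 for PMAIP1. The E8 day 2 group set an end of each of these ranges, and its libraries had the lowest TMM factors (0.903 and 0.904). For 14 of the 29 genes the mean on serum lay within the range of those 16 groups, for 8 above it and for 7 below it, and the mean on Geltrex lay within it for 18, above it for 6 and below it for 5. SUCLG1 at 137 CPM and MTIF2 at 324 CPM on serum exceeded all differentiating groups, which reached 120 and 250, and stood higher still on Geltrex at 202 and 447. For SLFN12 the order was opposite, with 7.36 CPM on serum and 2.79 on Geltrex, below the 20.5 to 51.1 of differentiating cells.

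Cells on both coatings carried the markers of the naive state. All 18 genes of the naive list were detected in all 4 libraries, and their summed level was 5190 and 5847 CPM on serum and 6040 and 5927 on Geltrex. KLF17, a transcription factor used as a marker of naive cells, had 54.9 and 97.4 CPM on serum and 108 and 126 on Geltrex. KLF4 went the other way, from 175 and 151 CPM to 109 and 110. Neither passed the adjusted threshold (KLF17 log2 fold change 0.62, adjusted p = 0.218; KLF4 −0.57, adjusted p = 0.0734), and without serum replicate 1 the values were 0.26 and −0.46. Without serum replicate 2 both passed, KLF17 at 1.09 and KLF4 at −0.67 (edgeR, adjusted p = 0.0374 and 0.0402). With the library score as covariate, the leading direction of the replicate differences in the 17 other groups, KLF4 passed (edgeR, −0.65, adjusted p = 0.0250). Of the 18 genes, 2 lay higher (KLF17, TFAP2C) and 2 lower (KLF4, SUSD2) at an unadjusted p under 0.05, where 7.68% and 6.44% of all genes did, and the median was 0.07. Without serum replicate 1 none lay higher and 1 lower, with TFAP2C at 0.11 and SUSD2 at −0.25.

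Of the general pluripotency factors, which naive and later pluripotent cells share, none passed the adjusted threshold. SOX2 had 271 and 269 CPM on serum and 274 and 258 on Geltrex, and NANOG 947 and 1163 against 1105 and 1129. POU5F1 had 561 CPM in serum replicate 1 but 390 in serum replicate 2, near the 363 and 365 on Geltrex. SALL4 had 456 and 383 CPM on serum and 338 and 287 on Geltrex (log2 fold change −0.42, adjusted p = 0.0868).

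Markers of other cell types were near the floor. The fibroblast list of 12 genes summed to 11.1 to 11.7 CPM on serum and 10.3 to 11.01 on Geltrex, with LUM, POSTN and FAP at 0 in all 4 libraries. The 6 hypoblast genes summed to 9.74 to 10.5 and 8.12 to 11.9 CPM, most of it HNF4A, and GATA4 had 4 and 2 counts on serum and 0 on Geltrex. The 10 trophectoderm genes summed to 31.9 to 36.7 and 39.5 to 43.9 CPM, and HAND1 was at 0 in all 4. CDH2, the cadherin gained on leaving the naive state, had 8 and 6 counts on serum and 1 and 1 on Geltrex, a ratio of 0.130 (interval 0.0143 to 0.566). Of 11 primed or formative markers 4 lay above 0 and 6 below, and it was the only 1 with an unadjusted p under 0.05, and of the others OTX2 lay at 0.41 and SALL2 at 0.28, with a list median of −0.07. In bulk samples fewer cells of a type and less RNA per cell cannot be told apart. The part that rare other cells played in any difference was not tested.

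Receptors for matrix changed little apart from SDC4. Of the 18 genes tested in the list of integrins and matrix receptors, 2 lay higher and 2 lower at an unadjusted p under 0.05, where 7.68% and 6.44% of all genes did, and 0 and 1 without serum replicate 1. SDC4 was the only one under the adjusted threshold. ITGB1, the beta-1 chain shared by laminin and fibronectin receptors, had 62.6 and 67.7 CPM on serum and 86.0 and 77.2 on Geltrex (log2 fold change 0.32, adjusted p = 0.174). ITGAV, the alpha chain of vitronectin receptors, had 14.8 and 13.97 CPM on serum and 9.20 and 11.01 on Geltrex (−0.50, adjusted p = 0.256), and its partner ITGB5 had 302 and 379 against 430 and 407 (0.30, adjusted p = 0.314, and 0.14 without serum replicate 1). ITGA6, the alpha-6 chain of laminin receptors, lay at 112 and 95.9 CPM on serum and 96.3 and 90.0 on Geltrex. The coatings did not overlap for ITGB1, ITGAV and ITGB5 and overlapped for ITGA6. In 10 of the 18 genes they did not overlap, as in 46.4% of all genes.

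The cells' own matrix genes showed no joint direction. Among 19 laminin and basement membrane genes the summed level was 607 to 631 CPM on serum and 601 to 614.5 on Geltrex. LAMB1 had 28.6 and 36.5 CPM on serum and 43.5 and 40.4 on Geltrex (0.37, adjusted p = 0.266, and 0.20 without serum replicate 1), and LAMC1, its partner chain, had 175 in both serum libraries and 157 and 144 on Geltrex (−0.21, adjusted p = 0.330). Neither passed the adjusted threshold.

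Focal adhesion genes link the matrix receptors to the cell's actin. Of 15 genes, 13 had a log2 fold change below 0 (median −0.24), 6 of them with an unadjusted p under 0.05 and none with an adjusted p under it. Of all 16674 genes, 8349 lay below 0 and 6.44% were lower at an unadjusted p under 0.05. ACTN4, the actinin that ties adhesions to actin, had 497 and 498 CPM on serum and 412 and 380 on Geltrex (−0.33, adjusted p = 0.137), a value that stayed at −0.33 without serum replicate 1. ILK, integrin-linked kinase, had 17.7 and 11.8 CPM on serum and 10.6 and 7.58 on Geltrex (−0.71, adjusted p = 0.117), and −0.39 without serum replicate 1. Zyxin (ZYX) lay at −0.64, filamin A (FLNA) at −0.67, BCAR1 at −0.59 and tensin-3 (TNS3) at −0.34. Without serum replicate 1 ZYX lay at −0.42, FLNA at −0.43 and BCAR1 at −0.34, the median was −0.21 and only ACTN4 kept an unadjusted p under 0.05.

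Actin genes were mixed. TAGLN2, which binds actin filaments, had 315 and 269 CPM on serum and 216 and 189 on Geltrex (−0.53, adjusted p = 0.108), CNN3 lay at −0.49 and PFN1 at −0.54 (−0.31 without serum replicate 1), while SRF, the transcription factor of many actin genes, had 127 CPM in serum replicate 1 and 237 in serum replicate 2 against 253 and 295 (0.59, adjusted p = 0.236). The value of SRF fell to 0.21 without serum replicate 1. The 20 YAP/TEAD target genes tested, which answer to tension at adhesions, had a median of −0.11 (0.00128 without genes at the floor of 3 counts), and GADD45A (0.45, adjusted p = 0.330) was the only one with an unadjusted p under 0.05.

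**Figure D4:**
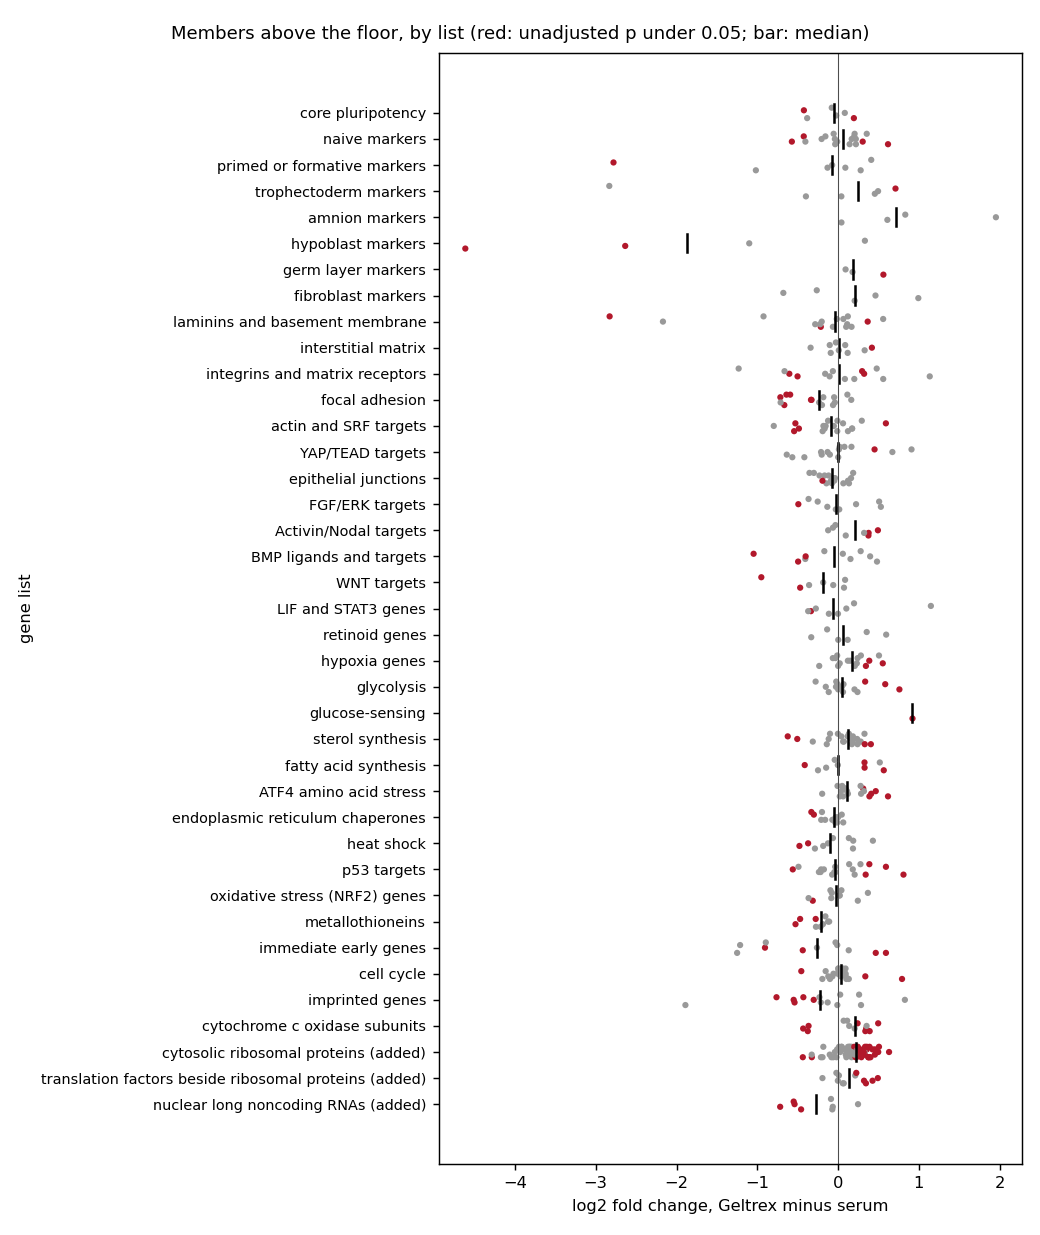
Log2 fold change of Geltrex against serum (x axis) for the tested members of 36 gene lists and of 3 lists added after values were seen (y axis), leaving out members with 3 counts or fewer in all 4 libraries. Red points have an unadjusted p under 0.05, bars are medians, and the metallothionein points all lie below 0 while the ribosomal protein points lie mostly above it.

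No gene of the BMP pathway passed the adjusted threshold with all libraries and no covariate. BMP ligands signal through SMAD proteins that switch on the ID genes, inhibitors of helix-loop-helix factors. ID1 had 83.7 and 84.1 CPM on serum and 60.6 and 58.5 on Geltrex (log2 fold change −0.50, adjusted p = 0.0868). ID4 had 14.4 and 13.8 CPM on serum and 6.73 and 6.86 on Geltrex (−1.05, adjusted p = 0.102). The ligand BMP2 had 55.3 and 53.7 CPM on serum and 43.1 and 39.5 on Geltrex (−0.40, adjusted p = 0.352). In all 3 the gap between coatings exceeded the gap between replicates, and the values without serum replicate 1 were −0.50, −1.01 and −0.38. They were 3 of 10 genes in the list, of which 5 lay above 0 and 5 below, and ID2 and ID3 did not share the direction. ID1 and ID4 passed the adjusted threshold with the library score as covariate (edgeR, adjusted p = 0.0420 and 0.0331).

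Among WNT targets the ubiquitin ligase ZNRF3, a feedback inhibitor, had 72.4 and 52.2 CPM on serum and 30.8 and 33.6 on Geltrex (−0.95, adjusted p = 0.0752), and AXIN2 had 55.6 and 41.1 against 35.7 and 34.1 (−0.47, adjusted p = 0.260). Serum replicate 1 was the highest library for both, and without it they lay at −0.70 and −0.24, while ZNRF3 passed with the library score as covariate (edgeR, adjusted p = 0.0410). Of the Nodal pathway the ligand NODAL lay at 0.37 and its antagonists LEFTY1 and LEFTY2 at 0.38 and 0.49, with 3 of 9 genes higher at an unadjusted p under 0.05 (7.68% of all genes) and none without serum replicate 1, where LEFTY2 lay at 0.30. JUN, an immediate early gene, had 26.3 and 34.1 CPM on serum and 20.2 and 24.2 on Geltrex (−0.44, adjusted p = 0.20), with −0.61 without serum replicate 1 and −0.24 without serum replicate 2. Of the 12 immediate early genes tested 3 lay above 0 and 9 below. At an unadjusted p under 0.05, 2 were higher and 2 lower, where 7.68% and 6.44% of all genes were. Their median was −0.32, and −0.25 without serum replicate 1.

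Metallothioneins, small cysteine-rich proteins that bind zinc and copper, lay lower on Geltrex in every member measured. All 8 of these genes and the zinc exporter SLC30A1, which shares their control by zinc, had a log2 fold change below 0, between −0.53 and −0.11 (median −0.22). MT1X had 248 and 259 CPM on serum and 177 and 175 on Geltrex (−0.53, SE 0.12, adjusted p = 0.0556), SLC30A1 had 62.9 and 63.5 against 47.1 and 44.2 (−0.47, adjusted p = 0.102), and MT1G had 1389 and 1387 against 1185 and 1105 (−0.28, adjusted p = 0.15). The coatings did not overlap in 8 of the 9 genes, where 22.5% of all genes lay lower without overlap. With the library score as covariate MT1X and SLC30A1 passed the adjusted threshold (edgeR, adjusted p = 0.0194 and 0.0420). MT1X, SLC30A1 and MT1G were the members lower at an unadjusted p under 0.05, where 6.44% of all genes were. Without serum replicate 1 their values were −0.56, −0.48 and −0.28. With the library score 6 members were lower at such a p, where 13.4% of all genes had one in either direction.

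Zinc acts on these genes through the factor MTF1, which binds metal response elements with the core TGCACNC or TGCGCNC, N being any base. The 250 bases before the start site are shown for MT1X, which had the largest difference, for MT2A, which had the smallest (−0.11), and for SLC30A1, with the letters of each core on either strand in capitals and overlapping places counted separately. They are RefSeq sequences on GRCh38.p14, at chr16:56682220-56682469 (plus strand), chr16:56608334-56608583 (plus) and chr1:211579162-211579411 (minus), each written in the direction of the gene.
MT1X: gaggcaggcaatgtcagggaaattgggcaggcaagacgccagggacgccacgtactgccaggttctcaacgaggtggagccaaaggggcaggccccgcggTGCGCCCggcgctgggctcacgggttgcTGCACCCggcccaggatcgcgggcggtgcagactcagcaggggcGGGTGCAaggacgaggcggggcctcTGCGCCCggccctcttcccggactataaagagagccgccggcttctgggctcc
MT2A: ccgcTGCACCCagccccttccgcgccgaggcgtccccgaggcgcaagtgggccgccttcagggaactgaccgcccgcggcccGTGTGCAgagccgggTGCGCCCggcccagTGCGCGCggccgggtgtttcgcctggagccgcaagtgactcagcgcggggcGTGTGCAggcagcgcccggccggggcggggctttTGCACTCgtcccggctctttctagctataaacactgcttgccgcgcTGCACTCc
SLC30A1: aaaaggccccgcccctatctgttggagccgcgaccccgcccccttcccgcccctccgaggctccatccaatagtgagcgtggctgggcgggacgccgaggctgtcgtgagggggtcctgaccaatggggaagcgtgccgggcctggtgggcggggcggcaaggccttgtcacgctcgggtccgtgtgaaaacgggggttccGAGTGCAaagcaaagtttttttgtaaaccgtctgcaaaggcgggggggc
MT1X held 4 such places, MT2A 7 and SLC30A1 1. Start-site sequence was at hand for 4 of the 9 genes (these 3 and MT1H, with 8 places), and 24.7% of all 27305 start sites held at least 1 place in 250 bases and 6.51% at least 2. A match of letters is not a measured site.

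**Figure D5:**
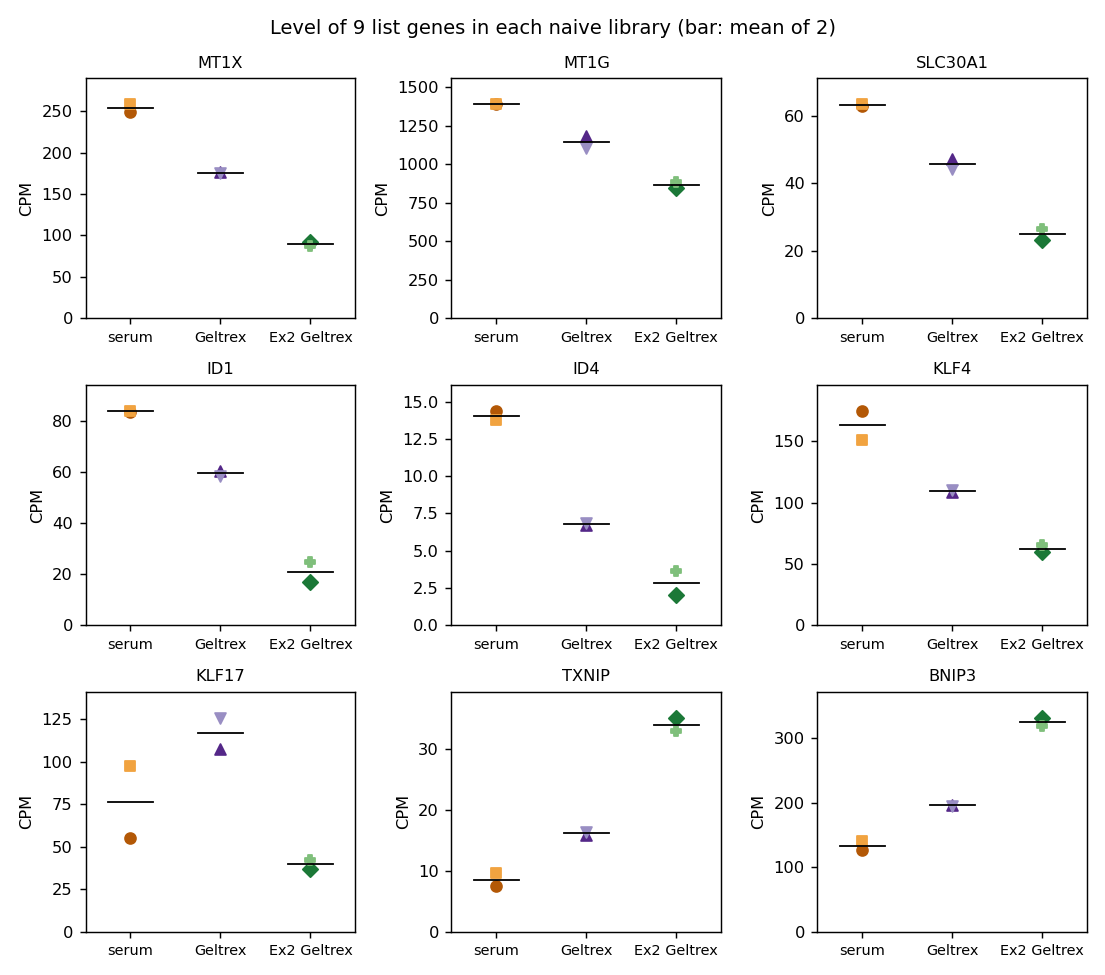
CPM (y axis, from 0) of 9 genes in the naive libraries on serum, on Geltrex and on Geltrex in Ex2, with 1 point per library and a bar at the mean of 2. MT1X, MT1G, SLC30A1, ID1, ID4 and KLF4 step down from serum to Geltrex to Ex2 Geltrex, TXNIP and BNIP3 step up, and KLF17 is highest on Geltrex of the first experiment.

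No gene of oxygen or glucose use passed the adjusted threshold with all libraries and no covariate. Without serum replicate 2, BNIP3, TXNIP and the glycolytic enzyme PGK1 passed it (edgeR, adjusted p = 0.0387, 0.0370 and 0.0451). BNIP3, a mitophagy receptor induced by low oxygen, had 126 and 141 CPM on serum and 196 and 195 on Geltrex (log2 fold change 0.55, adjusted p = 0.0597). P4HA1, a collagen prolyl hydroxylase, had 101 and 109 against 135 and 132 (0.34, adjusted p = 0.0929). Of 17 hypoxia genes tested, 12 lay above 0, 3 of them with an unadjusted p under 0.05 (7.68% of all genes), and the median was 0.21, which became 0.03 with the library score as covariate, a setting in which BNIP3 passed the adjusted threshold (edgeR, adjusted p = 0.0341). TXNIP, an arrestin that is induced by glucose and restrains its uptake, had 7.53 and 9.61 CPM on serum and 15.9 and 16.4 on Geltrex (0.92, adjusted p = 0.0597), with 0.75 without serum replicate 1.

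Among glycolytic enzymes ALDOC lay at 0.76, LDHA at 0.58 and PGK1 at 0.33, but the median of the 15 was 0.05. LDHA had 265 and 338 CPM on serum and 468 and 435 on Geltrex (adjusted p = 0.108), so that serum replicate 1 was again the lowest library. Cytochrome c oxidase, the last complex of the respiratory chain, is built from subunits of both genomes. The 10 nuclear subunits measured lay above 0, with COX7C at 388 and 457 CPM on serum and 574 and 617 on Geltrex (0.50, adjusted p = 0.0844), and the 3 mitochondrial ones below it, with MT-CO2 at 1704 and 1378 against 1137 and 1147 (−0.43, adjusted p = 0.138, and −0.27 without serum replicate 1). The mitochondrial share of counts given above moved with it, and its part in the result was not tested.

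Lipid synthesis was mixed. FADS1, a fatty acid desaturase, had 25.5 CPM in serum replicate 1 and 38.9 in serum replicate 2 against 44.9 and 50.2 on Geltrex (0.57, adjusted p = 0.1003), and its value without serum replicate 1 was 0.29. LSS, lanosterol synthase, had 22.8 and 21.0 CPM on serum and 13.9 and 14.4 on Geltrex (−0.62, adjusted p = 0.0891), and FDPS, an earlier enzyme of the same route, lay at 0.41 (0.26 without serum replicate 1). Of the 22 sterol genes 15 lay above 0, with a median of 0.13. Without serum replicate 1 the median was 0.06, and without serum replicate 2 it was 0.19.

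CDKN1A, the cell cycle inhibitor p21 induced by p53, had 11.3 and 9.39 CPM on serum and 18.6 and 17.7 on Geltrex (0.81, adjusted p = 0.112), and 0.95 without serum replicate 1. The median of the 19 p53 target genes was −0.04. Of 19 genes induced by ATF4 under lack of amino acids, 17 lay above 0 and 5 of these had an unadjusted p under 0.05 (7.68% of all genes), among them PSAT1 (0.41, and 0.23 without serum replicate 1) and ATF4 itself (0.31). Without serum replicate 1 the median was 0.02 in place of 0.11 and no member had such a p, whereas with the library score 6 had it and ASNS, asparagine synthetase, passed the adjusted threshold (edgeR, adjusted p = 0.0410). Of 12 endoplasmic reticulum chaperones 10 lay below 0, 2 of them with an unadjusted p under 0.05 (none without serum replicate 1, and 6.44% of all genes in the full fit), and the median was −0.05. HSPA1B, a heat shock protein, had 60.9 and 64.2 CPM on serum and 40.2 and 49.3 on Geltrex (−0.48, adjusted p = 0.166).

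Ribosomal protein genes as a group lay higher on Geltrex. Their list was drawn up after values had been seen, as were the lists of translation factors and nuclear RNAs that follow. Of 77 cytosolic ribosomal protein genes, 65 lay above 0 with a median log2 fold change of 0.22, and 38 higher and 2 lower had an unadjusted p under 0.05 (7.68% and 6.44% of all genes). The 3 named above (RPL26, RPL5, RPL12) passed the adjusted threshold. With the library score as covariate 7 members passed it, where 107 of all genes did. RPL13A and RPL31 were among the 7 (edgeR, adjusted p = 0.0194 and 0.0420). RPL31 had a log2 fold change of 0.51 and RPL13A of 0.37, whereas RPL23A lay at −0.44 and RPL28 at −0.33, and without serum replicate 1 these 2 lay at −0.24 and −0.06. Their summed level was 88060 CPM in serum replicate 1, 95540 in serum replicate 2 and 106600 and 105200 on Geltrex, so that serum replicate 2 lay between. Without serum replicate 1 still 65 of 77 lay above 0, the median was 0.14 and 14 had an unadjusted p under 0.05, where 4.98% of all genes did.

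Messages of ribosomal proteins begin with a run of pyrimidines at the first transcribed base, the 5′ terminal oligopyrimidine tract through which growth signals set their translation. The 5 bases before and 20 from the RefSeq start site (GRCh38.p14) are shown for 4 ribosomal protein genes with a log2 fold change above 0, for TPT1 of the translation list, for RPL28, which lay below 0, and for EEF1B2 of the translation list, which lay at 0.43. Capitals mark at least 6 C or T in a row counted from a base within 2 of the start, and pyrimidines further upstream, as in RPL13A, are not marked. They lie at chr17:8383174-8383198 (minus strand), chr2:101002284-101002308 (plus), chr19:49487603-49487627 (plus), chr9:127451387-127451411 (minus), chr13:45341164-45341188 (minus), chr19:55385927-55385951 (plus) and chr2:206159604-206159628 (plus).
RPL26: tagTTCTCTTCCCTTTTgcggccat
RPL31: gcgCTCTTCCTTTCCaacttggacg
RPL13A: tccTCCTTTTCCaagcggctgccga
RPL12: tccggCCTCTCggctttcggctcgg
TPT1: tcggCCTTTTCCgcccgctcccccc
RPL28: cctTCCTCTTTCCgtctcaggtcgc
EEF1B2: gccccagcctcgaggccgggcgtct
Such a row was found in 45 of 62 ribosomal protein genes with a start site at hand (72.6%) and in 9.57% of all start sites. RPL28 held one and EEF1B2 none.

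Other genes of translation lay mostly above 0. TPT1 had 1568 and 1805 CPM on serum and 2153 and 2128 on Geltrex (0.34), EEF1B2, an elongation factor subunit, lay at 0.43 (0.27 without serum replicate 1), EEF1D at 0.49 (0.29 without serum replicate 1) and NACA, a chaperone at the ribosome exit, at 0.32. Of 12 such genes 9 lay above 0 (8191 of all 16674) and 5 of these had an unadjusted p under 0.05 (7.68% of all genes), with none under the adjusted threshold, and 2 without serum replicate 1. EEF1B2 passed with the library score as covariate (edgeR, adjusted p = 0.0490). Of 8 nuclear noncoding RNAs 7 lay below 0, and beside MEG3, NEAT1 and KCNQ1OT1 the abundant RNA MALAT1 had 2563 and 2437 CPM on serum and 1748 and 1891 on Geltrex (−0.46). These 4 kept an unadjusted p under 0.05 without serum replicate 1. Of 14 imprinted genes 10 lay below 0, with 5 lower at an unadjusted p under 0.05 (6.44% of all genes). These were MEG3 and KCNQ1OT1, counted above among the nuclear RNAs, and PEG3 (−0.30), PEG10 (−0.43) and L3MBTL1 (−0.76), and the last 3 without serum replicate 1 lay at −0.17, −0.25 and −0.49.

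Annotated transcript length and base composition moved with the difference. Both were taken from the longest GENCODE v44 transcript of each gene, which need not be the one expressed. Among 8643 genes with a mean of at least 10 CPM and a GENCODE v44 transcript (96.6% of such genes), the log2 fold change had a median of 0.08 in the 2161 genes with the shortest transcripts and −0.05 in the 2161 with the longest, and −0.08 in the 2161 of highest GC content against 0.03 in the 2161 of lowest. The log2 ratio of serum replicate 2 to serum replicate 1 had the same order, with medians of 0.06 in the shortest and −0.00087 in the longest, and −0.04 in those of highest GC. Across genes, which are not independent replicates, the fold change correlated with log2 length at r = −0.201 and with GC at r = −0.179. Among the 24 of the 29 genes in this set, the 12 higher on Geltrex had a median GC of 40.9% and a median length of 2410 bases, and the 12 lower 51.7% and 6400 bases. The part of length and base composition in the results was not tested.

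Naive cells on Geltrex were also sampled in Ex2, where experiment and coating cannot be told apart in a comparison with serum. Their labels give day 0, while their library names carry d4, a difference the sources used here do not settle. Between the 2 experiments on Geltrex, 778 genes passed both thresholds (4.67%), against the 8 between coatings within the first experiment. The Ex2 libraries had 113 and 95.2 CPM of NEAT1, as high as on serum, and 157 and 142 CPM of SUCLG1, near serum. They had 178 and 202 CPM of MIDN, 161 and 179 of KCNQ1OT1, 44.4 and 41.8 of AC012617.1 and 148 and 142 of GGCT, near the levels on Geltrex in the first experiment, while JADE2 at 14.7 and 13.8 CPM lay far below both coatings (Ex2 against first experiment on Geltrex, log2 fold change −1.67, adjusted p = 1.38e-07). MT1X had 92.5 and 86.9 CPM there, ID1 17.1 and 24.9, TXNIP 35.2 and 32.9, and KLF17 36.9 and 42.3. For JADE2 and these 4 genes the difference in mean CPM between experiments on 1 coating exceeded that between coatings.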

How the data were processed

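The authors aligned 50 bp QuantSeq reads to hg38 with STAR 2.7.10a and quantified them with Salmon 1.9.0 in the nf-core/rnaseq workflow, and deposited estimated counts per gene as whole numbers, with no normalization. The annotation release is not given in the sources used here. Total counts set the precision. Exact Poisson intervals of count ratios cover counting error only, while the 95% intervals of the edgeR fit also include the spread between libraries.

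From these, edgeR 4.0.16 (R 4.3.3; filterByExpr, TMM, quasi-likelihood test, prior count 2) was fitted to all 38 libraries in 19 groups of 2, and Geltrex was set against serum with Benjamini-Hochberg adjustment over 16674 genes. Called genes had an adjusted p under 0.05 and an absolute log2 fold change above 1. All p-values in the text are from this test unless named otherwise. The script was tested on simulated data.

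Genes named were members of 36 gene lists, up to 15 called genes a direction with at least 10 CPM and no overlap, up to 6 with the largest CPM difference a direction at an adjusted p under 0.05, and the 10 with the smallest p a direction where fewer were called. The remaining genes under the adjusted threshold were named after their values were seen. The rule for the members reads titles only, but this comparison, its members and the lists were chosen with earlier results of these data known. The lists of ribosomal proteins, translation factors and nuclear RNAs and the library score were added after seeing the data. Positions are from GENCODE v44 (hg38) and sequences from RefSeq (GRCh38.p14).

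Alternatives were RLE and library-total scaling, other count filters, DESeq2 1.42.0, fits to fewer libraries, a replicate block, each library left out and other fold limits.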

Additional observations from a re-analysis of the deposited data

How the results depend on the processing

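Genes past both thresholds numbered 8, and 29 past the adjusted p alone, of which 3 were in the gene lists (SDC4, MEG3, KCNQ1OT1). Scaling by RLE or library totals gave 9 and 32, and a minimum of more than 10 counts 9 and 33. Without a filter there were 106 and 412 genes (1 and 29 in the lists). DESeq2 gave 11 and 191 (18 in the lists under the adjusted p). The 4 libraries fitted alone gave 1 and 1 (0 in the lists), the 6 naive libraries alone 76 and 340 (1 and 20), and the 30 libraries of the first experiment alone 0 and 0 (0). Leaving out 1 library gave 0 to 146 genes past both thresholds and 0 to 367 past the adjusted p, with 0 to 4 and 0 to 19 in the lists. The library score as covariate gave 17 and 107 (2 and 11). A log2 fold limit of 0.5 gave 24 genes, and no limit 29. The cause of these shifts was not tested.

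The replicate numbers do not pair the samples by any label, and replicate deviations correlated at r = 0.199 over 8945 genes in 2 pairs. With a replicate block 11 and 49 genes passed, and 187 and 1483 with the 4 libraries alone (1 and 68 in the lists).

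Directions turned for 2 pluripotency genes. In log2 fold change SOX2 ran from −0.0662 to 0.0187 when 1 library was left out and reached 0.0328 with the library score. In log2 fold change NANOG ran from −0.0586 to 0.239 when 1 library was left out. The 29 genes kept their direction in every alternative, which the lack of overlap between the coatings in all of them made all but certain.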
